A study of Mus musculus with 8 samples.

Results

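Microglia sorted from the lumbar spinal cord of control mice 1 day after sciatic nerve injury were compared with microglia from naive control mice. The comparison was made between the library labelled 1 day after nerve injury and the library labelled naïve, and no other sample entered it. Barcodes were kept with at least 1000 UMIs (unique molecular identifiers, each marking 1 captured RNA molecule), at least 500 genes and at most 10% of UMIs from mitochondrial genes, whose symbols start with mt-. This left 568 naive and 3323 day 1 cells, 3891 of the 14626 cells kept in the 8 libraries of the series.

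Both groups were C57BL/6 mice carrying Cx3cr1-yfp-creER on 1 allele, which places a yellow fluorescent protein and a tamoxifen-inducible Cre recombinase at the Cx3cr1 locus, a gene of microglia and other mononuclear phagocytes. Neither carried a floxed gene, and per the study's methods tamoxifen was given before every experiment. The injury was bilateral transection of the sciatic nerve per the labels, and transection with ligation per the methods. The labels list this procedure for every library, the naive one included, which was taken as naive from its title, description and treatment label. The other control libraries were from days 2 and 3 after injury, and 4 further libraries, called A20 cKO, came from mice with floxed Tnfaip3 (the gene of the protein A20) at the same times. YFP+ cells were sorted and sequenced with the 10x Genomics 3′ chemistry. Cords of 3 animals were pooled in each library per the methods, so each group was 1 library without replicates, and all cells were suspended in a medium with TGF-beta 2, IL-34 and cholesterol. The day, the animals, the sort and the library cannot be told apart, and no sham-operated group was included. No test between groups was therefore made, and the 95% intervals in parentheses cover counting error only.

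Microglia are macrophages that live in the brain and spinal cord. After a peripheral nerve is cut, microglia around the central ends of the injured neurons divide and change their transcription, with the colony-stimulating factor 1 receptor CSF1R as a main driver. Stimulated macrophages first transcribe early response genes (the AP-1 and EGR transcription factors and their feedback inhibitors), then cytokines and chemokines, and cells that enter the cycle make ribosomes and DNA replication factors before they divide.

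The 2 libraries differed in depth. The naive library held 1620481 UMIs in kept cells and the day 1 library 14058535, with medians of 2780 and 4080 UMIs per cell. After each cell of at least 2000 UMIs was thinned to 2000 UMIs, the median number of genes per cell was 1124 in naive and 1095 on day 1. The libraries shared 3 barcodes. Microglia markers were at high levels in both, with 2915 CPM (counts per 1000000 UMIs) of Tmem119 in naive and 3665 on day 1, and the 7 markers summed to 24482 and 23260 CPM. The summed markers of other cell types were low. The 6 monocyte markers summed to 8.64 and 3.56 CPM, the 8 neutrophil markers to 11.7 and 1.21, the 7 border macrophage markers to 1.23 and 0.711, the 5 lymphocyte markers found in the files to 1.85 and 0.356, the 6 astrocyte markers to 3.09 and 2.21, and the 6 neuron markers to 5.55 and 1.21. The 7 oligodendrocyte markers summed to 149 and 137 CPM, and the 5 endothelial markers to 51.2 and 17.3, of which Pecam1 alone made 51.2 and 16.9. Red cell markers were at 0 in both.

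Genes were compared when they had at least 100 UMIs in the 2 summed libraries together, which 8866 of 14981 detected genes had. The ratio is the log2 ratio of CPM, day 1 over naive, with 0.5 UMIs added to each sum, and a gene is called higher or lower when it differed by at least 2-fold with an interval off 0. On day 1, 332 genes were higher (3.74% of those compared) and 643 were lower (7.25%). These shares are the background for the counts of called list members given below. At 4-fold or more, 94 were higher and 49 lower, and at any size with an interval off 0, 1544 were higher (17.4%) and 2628 lower (29.6%). The genes called higher took 1.59% of all UMIs in naive and 7.49% on day 1, and the genes called lower took 5.01% and 1.83%. The median ratio over the compared genes was -0.13. Scaling by median-of-ratios size factors shifted every ratio up by 0.25 and gave 591 genes higher and 319 lower, and TMM factors gave 584 and 321. Relative to the median gene, 448 genes were higher and 463 lower. The balance of higher against lower genes thus depended on the scaling, whereas the 332 higher genes are called under both factors too, since these shift every ratio up. Because the day 1 library was deeper, a gene could pass the 100-UMI minimum through day 1 alone.

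**Figure D1:**
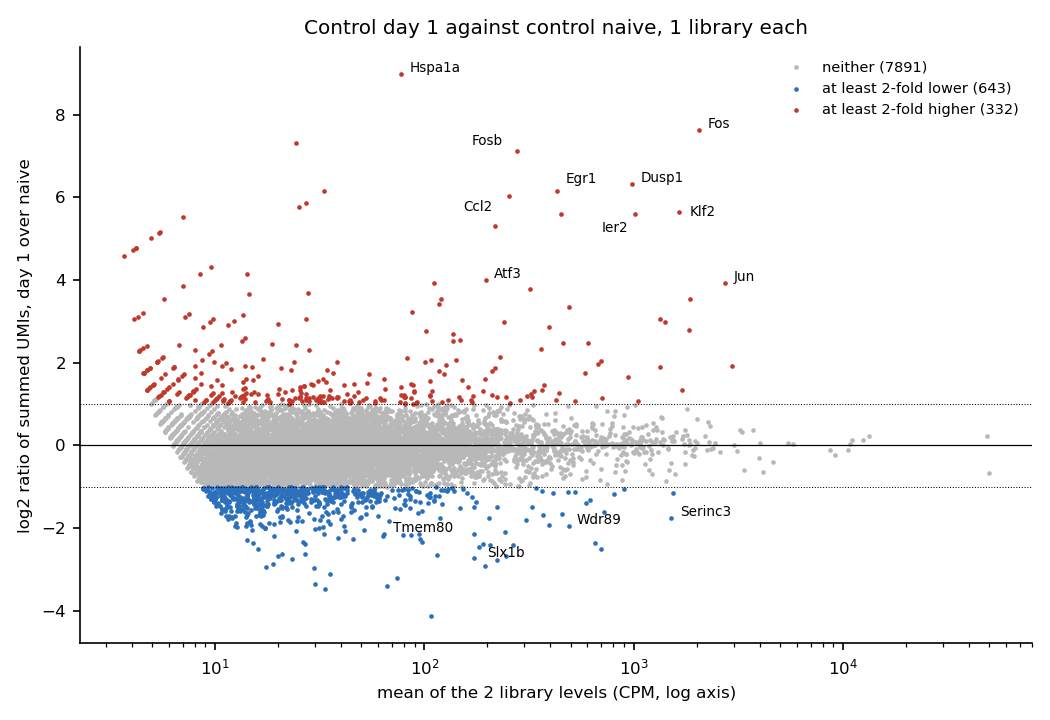
Log2 ratio of summed UMIs, day 1 over naive, against the mean of the 2 library levels in CPM (log axis) for 8866 genes, 1 point each, with dotted lines at 2-fold. The early response genes Fos, Fosb, Dusp1, Egr1, Klf2 and Jun stood far above the rest at high levels, while the 643 lower genes lay mostly within 4-fold.

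The promoters of 6 members are shown because they hold short motifs known to be bound by the factors that act on these gene groups. They are the 150 bases before the annotated start, taken from RefSeq on GRCm38.p6. In Fos (chr12:85473740-85473889, plus strand), Fosb (chr7:19310046-19310195, minus strand) and Dusp1 (chr17:26508473-26508622, minus strand), capitals mark TGACG or its complement CGTCA, the core of the cyclic AMP response element, which in Dusp1 overlap to the full palindrome. In Hspa1a (chr17:34972157-34972306, minus strand), capitals mark GAANNTTC, the paired unit bound by heat shock factor. In the replication gene Mcm5 (chr8:75109359-75109508, plus strand), they mark an E2F motif (TTTNGCG or CGCNAAA). In the interferon-stimulated gene Oas1a (chr5:120907526-120907675, minus strand), they mark 2 overlapping copies of the core of the interferon-stimulated response element. Each sequence runs 5′ to 3′ towards the gene.
Fos: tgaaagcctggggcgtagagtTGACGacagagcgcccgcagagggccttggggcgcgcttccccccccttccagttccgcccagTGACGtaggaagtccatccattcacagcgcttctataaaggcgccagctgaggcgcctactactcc
Fosb: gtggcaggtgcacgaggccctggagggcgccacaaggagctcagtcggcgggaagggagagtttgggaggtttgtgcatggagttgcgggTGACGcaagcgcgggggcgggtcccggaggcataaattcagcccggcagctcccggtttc
Dusp1: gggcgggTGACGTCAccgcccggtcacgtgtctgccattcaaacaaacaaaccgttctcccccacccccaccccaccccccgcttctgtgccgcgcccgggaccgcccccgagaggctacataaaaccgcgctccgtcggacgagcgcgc
Hspa1a: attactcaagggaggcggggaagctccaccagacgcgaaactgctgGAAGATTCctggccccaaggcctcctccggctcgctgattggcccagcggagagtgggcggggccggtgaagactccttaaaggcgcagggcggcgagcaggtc
Mcm5: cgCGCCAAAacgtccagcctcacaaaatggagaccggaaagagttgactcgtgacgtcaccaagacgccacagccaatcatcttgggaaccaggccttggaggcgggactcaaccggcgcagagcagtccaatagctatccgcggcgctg
Oas1a: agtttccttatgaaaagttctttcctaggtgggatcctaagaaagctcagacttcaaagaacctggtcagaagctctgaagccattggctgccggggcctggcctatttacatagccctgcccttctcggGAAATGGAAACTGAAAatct

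The motifs were counted on both strands in the 250 bases before the start of 27025 genes, 6872 of them among the compared genes. TGACG occurred in 10 of 23 early response genes called higher that had a promoter sequence (43.5%), beside 33.2% of the compared genes and 19.8% of all genes. GAANNTTC, which reads the same on both strands, occurred in 8 of 13 heat shock genes (61.5%), beside 12.5% and 14.5%. The E2F motif occurred in 6 of 29 replication genes (20.7%) and 7 of 39 ribosome biogenesis genes (17.9%), beside 7.49% and 4.02%. The core of the interferon-stimulated response element occurred in 7 of 16 interferon-stimulated genes (43.8%), beside 3.19% and 3.46%, and the NF-kB site in 8 of 17 genes of the NF-kB list (47.1%), beside 5.44% and 4.46%. TGACG was not particular to the early response genes, as it occurred in 7 of 13 heat shock genes (53.8%), 41.2% of the NF-kB list and 41% of ribosome biogenesis genes. The E-box CACGTG occurred in 7 of the 23 early response genes (30.4%), beside 10.7% of the compared genes. For each list 9 motifs were counted and few are printed, and these matches describe letters and not binding.

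Early response transcription factors were the most changed group. Fos, which pairs with JUN proteins in AP-1, was at 20.4 CPM in naive and 4105 CPM on day 1, a ratio of 7.63 (7.17 to 8.19). Jun, its main partner, was at 338 and 5124 CPM, a ratio of 3.92 (3.80 to 4.05). Of 13 AP-1 members 11 were compared and 6 were higher, beside 3.74% of all compared genes. The median ratio was 2.80, beside -0.13 for all genes. Fosb was at 3.70 and 554 CPM, a ratio of 7.11 (6.10 to 8.67). The further 3 were Atf3 (4.0), Jund (3.05) and Junb (2.80). The other compared members, Batf, Batf3, Fosl2, Mafk and Mafg, had ratios between 0.05 and 0.77. The higher members were thus Fos, Fosb, the JUN genes and Atf3. Fosl2 of the FOS family and the BATF and small MAF genes were not among them.

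Egr1, an early zinc-finger factor, was at 11.7 CPM in naive and 848 CPM on day 1, a ratio of 6.14 (5.53 to 6.91). Klf2, a Krüppel-like factor that restrains inflammatory transcription, was at 64.8 and 3245 CPM, a ratio of 5.64 (5.37 to 5.94). Of the 14 members of the EGR, NR4A, KLF and IER list 11 were compared and 9 were higher, beside 3.74% of all compared genes. The list's median was 4.77, or 3.92 with Egr2 and Egr3, which had 0 UMIs in naive, at their lower bound. Ier2 was at 40.7 and 1992 CPM (5.60) and Klf4 at 10.5 and 425 CPM (5.30). Ier3 (3.92), Klf6 (2.47) and Ier5 (2.04) were also higher. The orphan receptors Nr4a1, Nr4a2 and Nr4a3 had 0, 2 and 0 UMIs in naive and 52, 11 and 3 on day 1, under the minimum.

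Genes of feedback and mRNA decay were higher in the same library. Dusp1, a phosphatase that switches off MAP kinases, was at 24.1 CPM in naive and 1948 CPM on day 1, a ratio of 6.32 (5.89 to 6.83). Btg2, an antiproliferative adaptor of mRNA deadenylation, was at 318 and 2505 CPM (2.97, 2.85 to 3.1). Zfp36, which destabilises cytokine mRNAs, was at 118 and 601 CPM (2.34, 2.14 to 2.56). Of 26 members 21 were compared, 12 were higher and 0 were lower, beside 3.74% and 7.25% of all compared genes. The median was 1.76. Socs3, the feedback inhibitor of cytokine receptors, had a ratio of 3.78, and Ppp1r15a, a phosphatase subunit of the stress response, one of 3.55. Adamts1, a secreted protease in no list and among the 12 largest ratios, was at 17.9 and 883 CPM (5.60, 5.10 to 6.2).

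Heat shock genes were higher too. Hspa1a, the inducible HSP70, had 0 UMIs in naive and 2185 (155 CPM) on day 1, at least 84.0-fold higher against a floor of 3 counts in naive. Hspb1, a small heat shock protein, had 0.617 CPM in naive, which is 1 UMI, and 53.8 CPM on day 1 (5.86, 3.96 to 11.75). Hspa8, the constitutive HSP70, was at 565 and 2101 CPM (1.89, 1.80 to 1.99). Thus inducible and constitutive chaperones were both higher. Of 21 members 18 were compared, with a median of 1.18. Of these, 10 were higher and 0 were lower, beside 3.74% and 7.25% of all compared genes. Dnajb1 (2.70), Hsp90aa1 (2.14), Hsp90ab1 (1.96) and the mitochondrial Hspd1 (1.30) were among them, and the regulator Hsf1 had a ratio of 0.10 (-0.34 to 0.59). Hspa1b, nearly identical to Hspa1a, had 2 and 13 UMIs, so reads of the pair may be divided unevenly by the counting. In the unfolded protein list, of median 0.71, 5 of 16 compared members were higher, beside 3.74% of all compared genes. They were the endoplasmic reticulum chaperones Hspa5 (1.65), Creld2 (1.22) and Calr (1.07), the transcription factor Atf4 (1.04), and Chac1, with 0 UMIs in naive.

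Chemokines and cytokines divided into members that were much higher and members that were not. Ccl2, which attracts monocytes through CCR2, was at 7.41 CPM in naive and 502 CPM on day 1 (6.03, 5.28 to 7.04). Ccl12, a second mouse ligand of CCR2, was already at 294 CPM in naive and reached 3406 CPM (3.53, 3.40 to 3.67). Ccl3, a ligand of CCR1, was at 87.0 and 892 CPM (3.35, 3.12 to 3.61). All 3 are secreted attractants of leukocytes, and their naive and day 1 intervals did not overlap. Of 16 chemokines 10 were compared, 6 were higher and 1 was lower, beside 3.74% and 7.25% of all compared genes. Ccl7 (5.75), Ccl4 (2.47) and Cxcl10 (1.69) were the other higher genes. The ratio of Ccl7 rests on very few naive UMIs, so its size is uncertain. Ccl5 was lower (-1.32), and Ccl6 and Ccl9 had ratios of -0.67 and -0.96.

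Tnf, the gene of tumour necrosis factor, was at 16.7 CPM in naive and 158 CPM on day 1 (3.22, 2.70 to 3.85). Il1b was at 3.09 and 18.2 CPM (2.43, 1.32 to 4.20) and Il1a at 106 and 229 CPM (1.10, 0.88 to 1.34). Il6 was lower, at 29.0 and 13.5 CPM (-1.11, -1.57 to -0.61). Of 14 cytokines 10 were compared, and these 4 were the calls. In the NF-kB list 5 of 21 compared members were higher and 1 was lower, beside 3.74% and 7.25% of all compared genes. The list's median was 0.21. The higher members were mostly inhibitors or atypical IkB proteins, namely Nfkbiz (2.76), Bcl3 (2.21), Nfkbid (1.35) and Nfkbia (1.35), together with the subunit Relb (1.16). Birc2, an inhibitor of apoptosis, was the 1 lower gene (-1.80), a share under that of all compared genes. Tnfaip3, the gene of the deubiquitinase A20, had a ratio of 0.05 (-0.41 to 0.59).

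**Figure D2:**
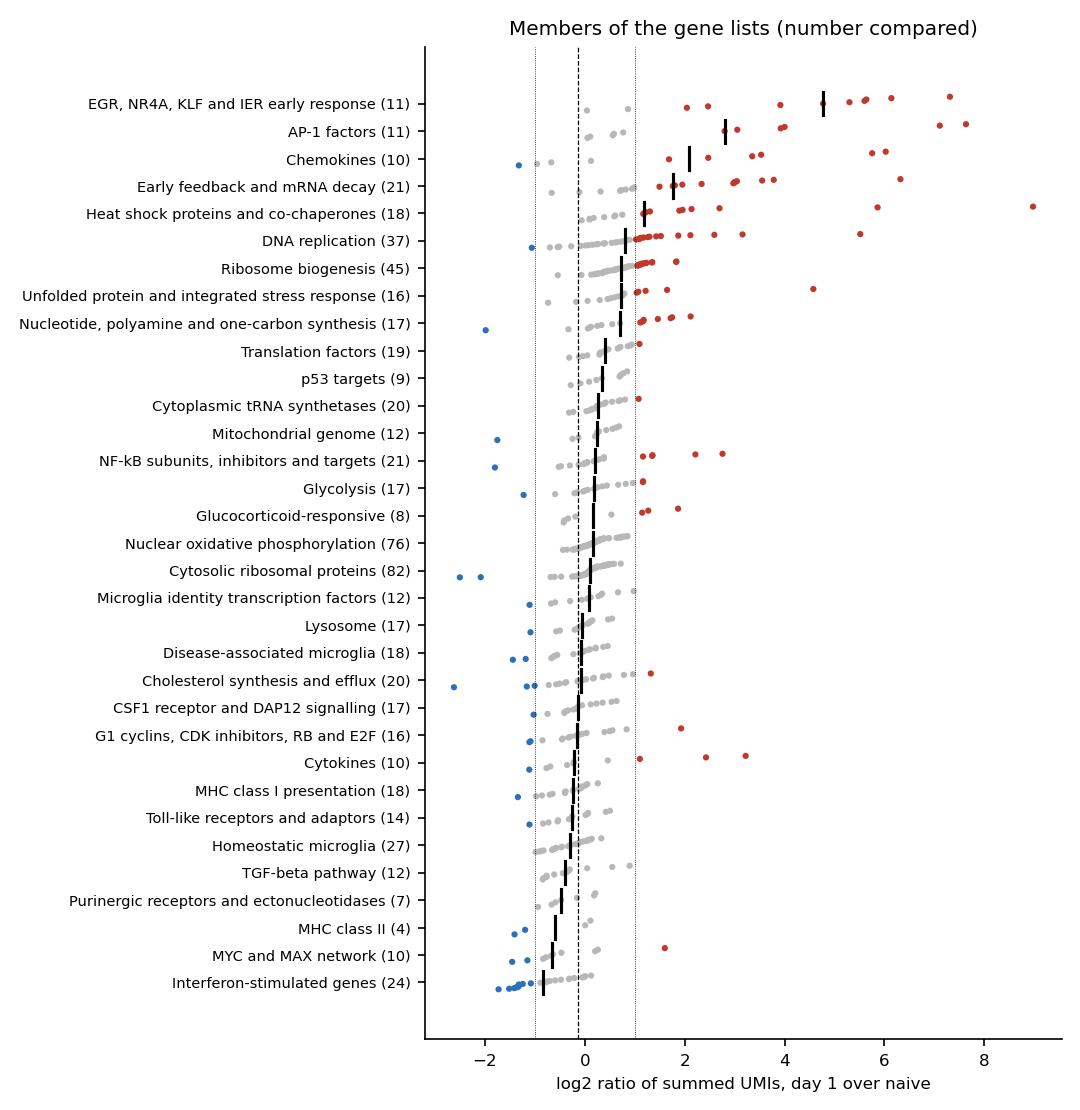
Log2 ratios, day 1 over naive, of the compared members of the 33 gene lists with at least 2 of them, 1 point per gene, red when called higher, blue when called lower and grey otherwise. The black bar is the list median, the dashed line the median of all compared genes (-0.13), and the number compared stands after each name. The early response, chemokine and heat shock lists had the highest medians and the interferon-stimulated list the lowest.

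Growth genes were higher by smaller ratios. Srm, which makes the polyamine spermidine, was at 30.9 CPM in naive and 135 CPM on day 1 (2.12, 1.73 to 2.57). Nme1, a nucleoside diphosphate kinase, was at 57.4 and 190 CPM (1.72, 1.43 to 2.04). Ncl, the gene of nucleolin, was at 181 and 390 CPM (1.11, 0.94 to 1.29). All 45 ribosome biogenesis genes were compared, of which 14 were higher, 0 were lower and 43 had a positive ratio, with a median of 0.73. Lyar and Ltv1 (1.83 each) had the largest ratios of that list, and RNA polymerase I subunits were near 0, with Polr1a at -0.07 and Polr1b at 0.13. In the nucleotide, polyamine and one-carbon list 8 of 17 were higher and 1 was lower, beside 3.74% and 7.25% of all compared genes. Shmt2, Mthfd2 and Psat1, of one-carbon and serine metabolism, had ratios of 1.46, 1.16 and 1.17. The lower gene was Nme2 (-1.99), a close relative of Nme1 with which it shares a chromosomal neighbourhood. Reads of such a pair may be divided unevenly by the counting, so the ratios of Nme1 and Nme2 are both uncertain.

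Myc, the transcription factor that drives ribosome biogenesis, had a ratio of 1.60 (1.21 to 2.05). In the MYC and MAX network it was the 1 higher gene of 10 compared, whose median was -0.66. Of all compared genes 3.74% were higher and 7.25% lower. Mlxip (-1.15) and Mycl (-1.46) were lower, and the MYC antagonists Mnt, Mxd4 and Mga had ratios of -0.84, -0.78 and -0.68. Cytosolic ribosomal proteins themselves differed little, with a median of 0.10 over 82 genes. Translation factors had a median of 0.41 over 19 genes. Eif5a (1.09) was the 1 higher gene among them, a share near that of all compared genes.

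Genes of DNA replication were higher and genes of mitosis were barely detected. Mcm2, a subunit of the replicative helicase, was at 2.47 CPM in naive (4 UMIs) and 24.8 CPM on day 1 (3.16, 1.96 to 5.21). Mcm5, another subunit, was at 3.70 and 24.2 CPM (2.59, 1.57 to 4.16). Ung, which removes uracil from DNA, had 0 UMIs in naive and 198 on day 1, at least 7.61-fold higher against 3 counts. Of 52 members 37 were compared, 15 were higher and 1, Pola2, was lower (-1.06), with a median of 0.80. Of all compared genes 3.74% were higher. Members with few naive UMIs could pass the UMI minimum only through day 1. The count and median were therefore partly set by that minimum. In cells of 2000 to 4000 UMIs the median was 0.37 over 17 genes. All 52 members, with no minimum, summed to 763 CPM in naive and 1162 CPM on day 1 (0.61, 0.52 to 0.69). The higher genes included the helicase subunits Mcm6 (1.87) and Mcm4 (1.13), the clamp Pcna (1.18), Rrm1 (1.26) and E2f1 of the G1 list (1.93). These were low levels, and the 15 replication genes lay between 9.32 (Uhrf1) and 59.5 CPM (Tipin) on day 1. Of 30 mitosis genes 29 were under the minimum in both libraries together and summed with Kif2c, a kinesin, to 45.0 and 51.2 CPM. Kif2c had 1 UMI in naive and 151 on day 1 (3.54, 1.62 to 9.43), so it too was compared through day 1 alone. Mki67 was at 2.47 and 1.64 CPM. Of 16 G1 regulators compared 1, E2f1, was higher, and 2, the inhibitor Cdkn1c (-1.09) and the pocket protein Rbl2 (-1.11), were lower. Of all compared genes 7.25% were lower. The median of the G1 list was -0.15, and under median-of-ratios factors it was 0.098 with 0 genes lower.

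Interferon-stimulated genes were the list with the lowest median. Rtp4 was at 107 CPM in naive and 37.6 CPM on day 1 (-1.52, -1.76 to -1.26). Oasl2, of the oligoadenylate synthetase family, was at 32.1 and 9.74 CPM (-1.73, -2.19 to -1.23). Of 35 members 24 were compared, 11 were lower and 0 were higher, with a median of -0.83, or -0.59 under median-of-ratios factors with 9 lower. Isg15 and Irf7 had ratios of -0.70 and -0.76, and Ifitm3 and Usp18 of 0.01 and 0.13, so the list was not uniform. Of the MHC class I list 1 gene of 18 was lower, H2-T23 (-1.34), a share under that of all compared genes, and the list's median of -0.24 became 0.0092 under median-of-ratios factors. B2m, at 5041 and 3220 CPM, had a ratio of -0.65. Of the class II list Cd74 (-1.20) and H2-Ab1 (-1.41) were lower among 4 compared.

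Homeostatic microglia genes remained within 2-fold of naive, each of the 27, but 18 had an interval below 0 and 5 had one above 0. Among all compared genes 29.6% had an interval below 0 and 17.4% one above. Together the 27 genes took 113130 CPM in naive and 85451 CPM on day 1, and most of the difference was Cst3, the gene of cystatin C, at 60841 and 38582 CPM (-0.66). P2ry12, the purinergic receptor of process movement towards injury, was at 4026 and 2680 CPM (-0.59, -0.63 to -0.55). Tmem119 was at 2915 and 3665 CPM (0.33, 0.29 to 0.37). The members therefore differed among themselves, from Mertk, a phagocytic receptor, at -0.99 to Tmem119. The list's median was -0.29 and -0.05 under median-of-ratios factors. Sall1, a transcription factor of microglia identity, was lower (-1.11, -1.29 to -0.92). It was the 1 call among 12 such factors, a share near the 7.25% lower among all compared genes. The TGF-beta receptors Tgfbr1 and Tgfbr2, whose signal maintains the homeostatic state, had ratios of -0.83 and -0.84, and Smad7, an inhibitor of that pathway, one of 0.90, with 0 of 12 genes of that list called. Runx1 and Cebpa, myeloid transcription factors, had ratios of 0.98 and 0.66.

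Csf1r was at 2450 and 2356 CPM (-0.06, -0.10 to -0.01). Of 17 compared genes of its pathway 1, the adaptor Gab2, was lower (-1.03), a share under that of all compared genes. In the disease-associated microglia list 0 of 18 were higher and 2 were lower, beside 3.74% and 7.25% of all compared genes. Apoe, the lipid carrier, was at 1113 and 490 CPM (-1.18, -1.26 to -1.11), and Axl, a phagocytic receptor, at 25.3 and 9.39 CPM (-1.44). Of the glucocorticoid-responsive list Tsc22d3 (1.87), Per1 (1.27) and Sgk1 (1.15) were higher among 8 compared, while Fkbp5 had a ratio of -0.43.

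Among the 12 largest negative ratios 5 genes share exons with another gene on their strand and 7 do not. Such overlap was found for 13.9% of all lower genes, 8.18% of the higher and 8.98% of the compared genes. Slx1b, a subunit of a structure-specific nuclease, was at 307 CPM in naive and 56.3 CPM on day 1 (-2.45, -2.61 to -2.28). It lies on chromosome 7 from 126689468 to 126695784 of GRCm38 within a span that Bola2 and Gm6939 overlap, with exons shared on the same strand, and Gng10 (-2.15), Uba7 (-1.66), Gal3st4 (-2.13) and Psme2b (-2.05) do so too. Tmem80, a membrane protein, was at 163 and 32.2 CPM (-2.34, -2.56 to -2.12) and overlaps no gene. Serinc3, a membrane protein of the serine incorporator family, was at 2334 and 694 CPM (-1.75, -1.80 to -1.69). The others were Dynlt1c (-2.18), Snhg9 (-2.16), Wdr89 (-1.94), Gfm2 (-1.84) and Leng8 (-1.74). Pseudogenes were lower as a class. All 11 compared ribosomal-protein pseudogenes were lower, with a median of -2.65, beside 0.10 for the ribosomal-protein genes. In control they summed to 3046 CPM (naive), 660 (day 1), 701 (day 2) and 1875 (day 3), and in A20 cKO to 1395, 3087, 3359 and 3666 CPM at the same times. Near-identical copies can divide reads in the counting, so these levels are uncertain. The processing notes name the same software version for each library, and whether the processing differed between libraries was not tested. Their part in the lower genes was not tested, but among protein-coding genes with no predicted name and no same-strand exon overlap, 281 of 7627 were higher (3.68%) and 455 were lower (5.97%).

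Single cells were described by the share of their UMIs in each list. In cells of at least 2000 UMIs (502 naive, 3225 day 1) the share of a cell's UMIs in AP-1 genes had a median of 0.136% in naive and 1.53% on day 1. On day 1, 99.9% of cells lay above the 95th percentile of naive cells (0.280%), and 99.9% did so for the EGR, NR4A, KLF and IER list. The same was true of 88.5% of day 1 cells for feedback genes, 86.1% for heat shock genes and 77.4% for chemokines. It was true of 26.9% for ribosome biogenesis and 12.2% for DNA replication. For homeostatic genes 36.0% of day 1 cells lay below the naive 5th percentile. Such a share is weighted towards a list's most abundant genes, such as Ccl12 among chemokines and Cst3 among homeostatic genes. Lists with few UMIs per cell, such as DNA replication, have wider counting noise, and cells were not thinned here. These percentages therefore do not rank the lists by how widely their members were shared. The AP-1 share was above that of every naive cell in 96.5% of day 1 cells. The DNA replication share shifted by a little across the cells, with quartiles of 0.0351%, 0.0688% and 0.106% in naive and 0.0608%, 0.0945% and 0.142% on day 1, and cells with no replication UMI were 13.3% and 2.88%, at unequal depths.

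With each cell thinned to 2000 UMIs, Fos was found in 3.57% of naive cells (2.13 to 5.59) and 98.5% of day 1 cells (98 to 98.9). Ccl12 was found in 25.2% and 96.7%, Ccl3 in 6.89% and 61.5%, and Ccl2 in 1.21% and 38.5%. Hspa1a was found in 0 of 502 naive cells, with an upper limit of 0.732%, and in 17.5% of day 1 cells (16.2 to 18.9). Mcm2 was found in 0.310% and 4.27% and Srm in 5.16% and 22.5%. Slx1b was found in 45.1% and 11%. Without thinning Fos was found in 4.93% and 99.7%, Hspa1a in 0% and 28.2%, and Mcm2 in 0.704% and 9.06%. The red cell gene Hba-a1 and the T cell gene Cd3e, which microglia lack, were in 0% of cells of both libraries. They had no UMI in either library, so no background share could be measured for a gene as abundant as Fos or Ccl12.

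The 5% of day 1 cells with the most UMIs of a gene held 14% of those of Fos, 15.4% of those of Dusp1 and 24.8% of those of Ccl12. They held 41.4% of Ccl2, 54% of Hspa1a and 69.9% of Ccl7. Such a share is larger for a gene with fewer UMIs, and the order of these genes was not compared at equal level. Among day 1 cells of 2000 to 4000 UMIs, Ccl3 was found in 73% of 611 cells with Ccl2 (69.3 to 76.5) and in 70% of 858 cells without it (66.9 to 73.1), intervals that overlap. Ccl4 was found in 70.3% of 1047 cells with Ccl3 (67.4 to 73.1) and in 61.8% of 422 cells without it (57 to 66.5), where the median depths were 3372 and 3124 UMIs.

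**Figure D3:**
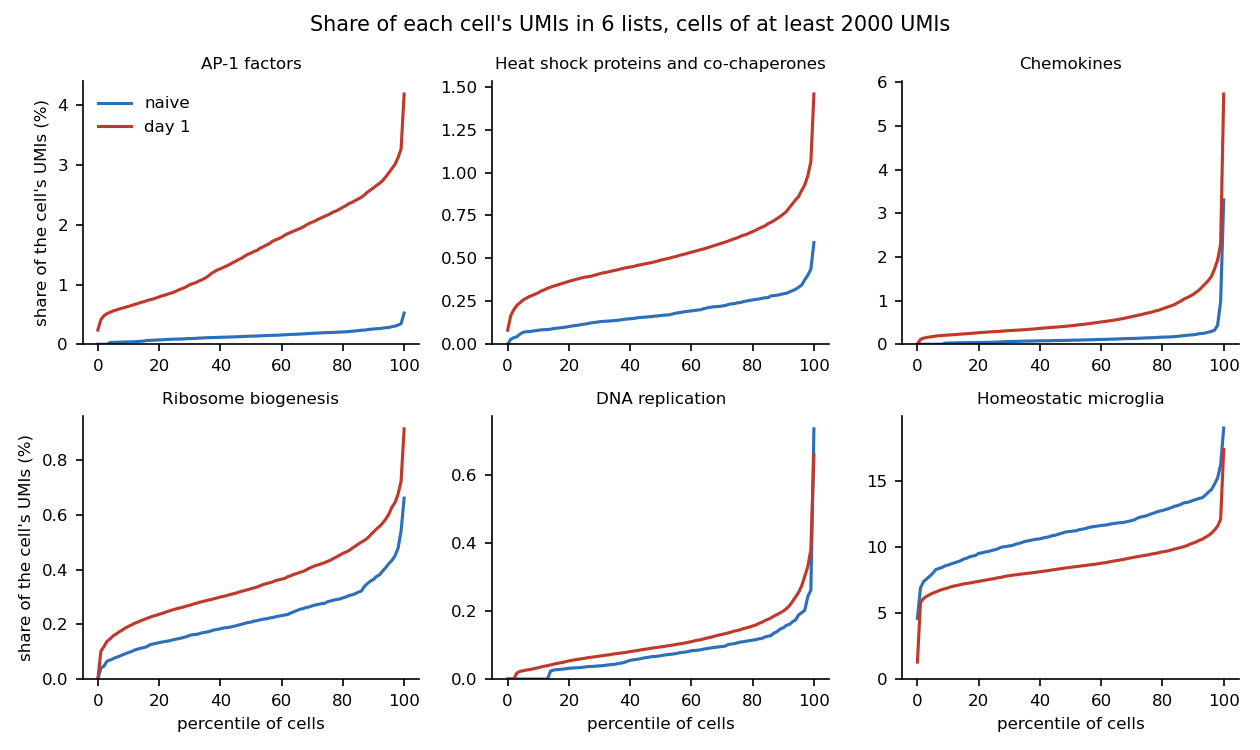
Share of each cell's UMIs (%) in 6 gene lists, plotted against the percentile of cells, for naive (blue, 502 cells) and day 1 (red, 3225 cells) of at least 2000 UMIs. The AP-1 curves barely share a range, whereas those of ribosome biogenesis and DNA replication overlap over most of their range.

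The AP-1 share varied widely within day 1, from 0.238% to 4.19%. The 3225 cells were divided by it into 3 groups of 1075, a division of a continuous range and not of cell types, chosen after the values were seen, with 771 cells within 10% of a boundary. The median share was 0.741%, 1.53% and 2.39% and the median depth 3574, 4401 and 4297 UMIs in the lowest, middle and highest group. Against naive, the ratio of Dusp1 was 5.23, 6.26 and 6.91 in these groups, that of Klf4 3.94, 4.93 and 6.12, and that of Tsc22d3 1.05, 1.75 and 2.42. Hspa1a was at 73.2, 171 and 213 CPM. Ccl12 had ratios of 3.63, 3.63 and 3.33, Srm of 2.05, 2.30 and 1.96, Mcm2 of 3.39, 3.29 and 2.77, and Myc of 1.37, 1.68 and 1.72. The medians of the ribosome biogenesis list were 0.80, 0.83 and 0.60, of DNA replication 0.86, 0.76 and 0.66, and of interferon-stimulated genes -0.70, -0.87 and -1.03. In the lowest group 328 genes were higher and 611 lower, of which 272 and 501 were among the genes called over all cells. Over all cells 3.74% of the compared genes were called higher and 7.25% lower. The lowest group is part of the day 1 sum and was set against the same naive library. This overlap was therefore partly fixed in advance. The median of the feedback list was 1.07, 1.80 and 2.07, and that of the glucocorticoid-responsive list -0.06, 0.37 and 0.22. Chemokines differed, since Ccl2 (5.28, 6.42 and 6.07), Ccl3 (2.53, 3.63 and 3.57), Ccl4 (1.79, 2.67 and 2.71) and the list median (1.54, 2.30 and 2.23) were lowest in the lowest group, and Ccl12 was not. The heat shock median was 1.06, 1.25 and 1.09, without the increase of Hspa1a, and Tnfaip3 had ratios of -0.60, -0.06 and 0.55. Dusp1, Klf4, Tsc22d3 and the feedback median thus increased over the groups. The ratio of Mcm2 and the median of ribosome biogenesis were no lower in the lowest group than in the highest. Because cells were ranked by the AP-1 share, genes that vary together with AP-1 genes increase over the groups by that ranking.

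The other 6 libraries place both ends of the comparison. Fos was at 186 CPM on day 2 and 301 on day 3, and at 508, 13.2, 21.1 and 504 CPM in A20 cKO naive and days 1, 2 and 3. Hspa1a was at 5.56 CPM or less in all 6. The day 1 level of these genes was therefore the highest of the 8 libraries, and Fos in A20 cKO did not follow the days in the order seen in control. Ccl12 was at 1088 and 1991 CPM on days 2 and 3, and at 1236, 5152, 2751 and 2290 CPM in A20 cKO. Mcm2 was at 33.3 and 15.5 CPM, and at 10.1, 27.4, 26.4 and 20.9 CPM in A20 cKO. In both genotypes the naive library was the lowest for Ccl12 and Mcm2. Oasl2 was at 15.0 CPM on day 2, as low as on day 1 to within 2-fold, and between 214 and 458 CPM in day 3 and all A20 cKO libraries. Slx1b was between 29.0 and 56.3 CPM in all libraries but control naive.

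**Figure D4:**
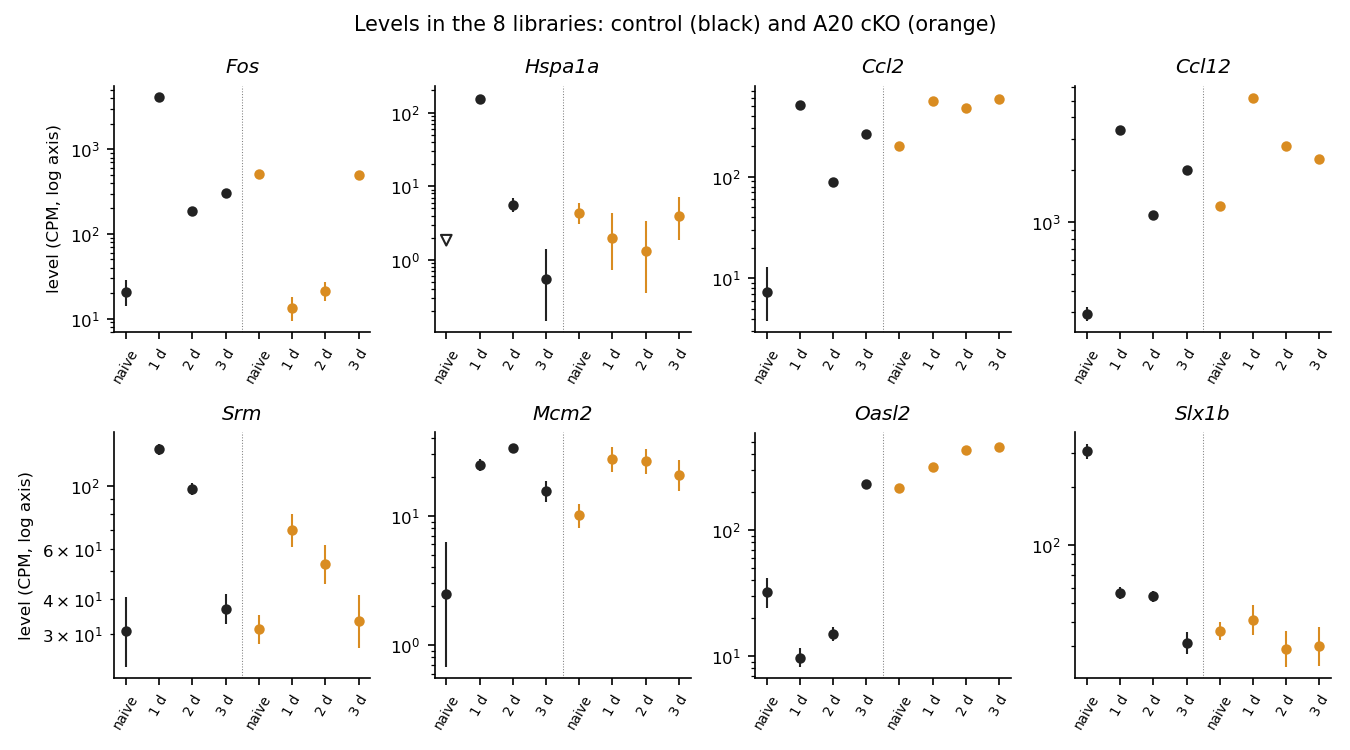
Levels in CPM (log axis) of 8 genes in control (black) and A20 cKO (orange) libraries, naive and 1, 2 and 3 days (d) after injury, with exact 95% Poisson intervals and an open triangle at the 3-count limit where no UMI was found. Fos and Hspa1a were highest on control day 1, Slx1b was highest in control naive, and Mcm2 and Ccl12 were lowest in the naive library of each genotype.

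Of the 332 higher genes, 61.1% were lowest in control naive among the 8 libraries and 56.3% highest on day 1, beside 15.2% and 12.7% of all compared genes. Of the 643 lower genes, 55.4% were highest in control naive and 60.3% lowest on day 1, beside 20.6% and 21%. These shares are raised by the choice of the genes and are given as a description.

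The same contrast in the A20 cKO genotype used 4 libraries in all with none in common. There 139 of 8919 genes were higher (1.56%) and 124 lower (1.39%). Among the 8449 genes compared in both genotypes, 1.42% were higher and 1.28% lower in A20 cKO. The 256 higher in control included 37 higher (14.5%) and 27 lower (10.5%) in A20 cKO. The 598 lower in control included 39 higher (6.52%) and 18 lower (3.01%). The lists differed in this respect. Of 11 AP-1 genes compared in A20 cKO 0 were higher and 4 lower, with a median of -0.64. Of 42 ribosome biogenesis genes 9 were higher and 0 lower (0.66), and of 39 replication genes 10 and 0 (0.54). Of 17 nucleotide, polyamine and one-carbon genes 6 were higher and 0 lower (0.84), and of 12 chemokines 3 and 0 (0.48). Of 34 interferon-stimulated genes 0 were called, with a median of 0.19. The growth and replication lists therefore had positive medians in both genotypes, the AP-1 list had opposite signs, and whether the genotypes differed was not tested.

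**Figure D5:**
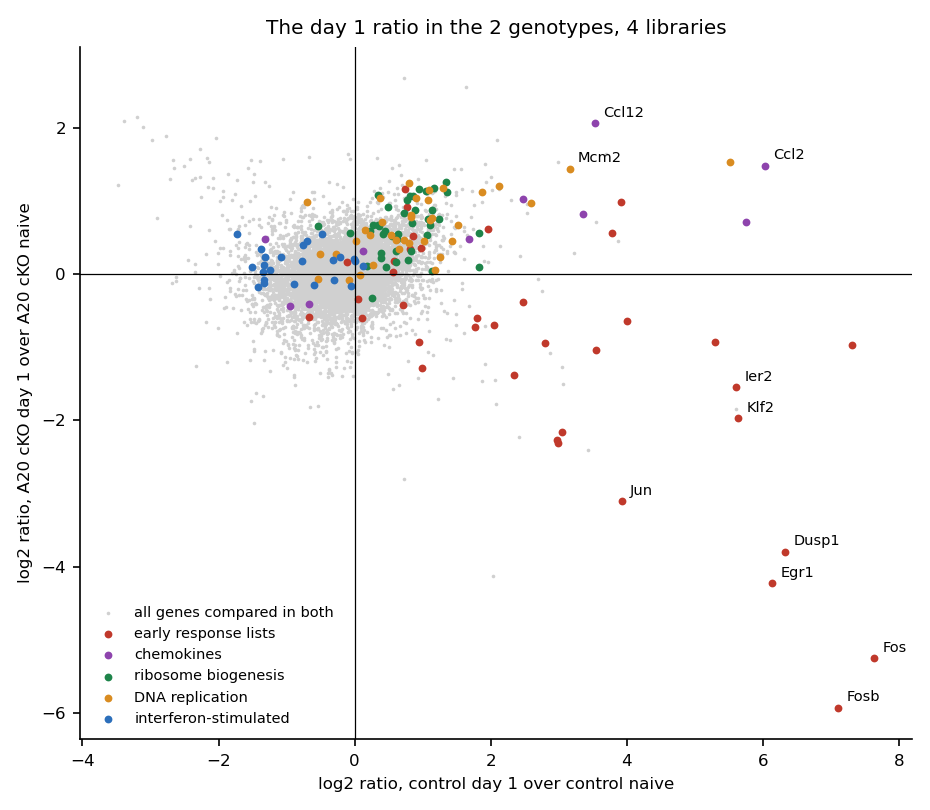
Log2 ratio of day 1 over naive in A20 cKO against that in control, 1 point per gene compared in both (8449, grey), with members of 5 groups of lists in colour. Fos, Fosb, Egr1, Dusp1 and Jun lie far to the lower right, while ribosome biogenesis and DNA replication genes lie mostly in the upper right.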

How the data were processed

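Single-cell RNA-seq libraries of YFP+ microglia from control naive mice and control mice 1 day after injury were analysed, with 6 further libraries as context. The deposited values were unnormalised UMI counts for each gene in each barcode, which the submitters' processing notes tie to Cell Ranger 2.1.1 and mm10. The kit is v3.1 in the labels and v3 in the methods. Doublets were excluded at the sort per the methods, and no doublet caller was run here. Counts were summed over kept cells of each library (1620481 and 14058535 UMIs) with Python 3.11.15, numpy 2.4.6 and scipy 1.17.1. Intervals are exact (conditional binomial for ratios, Poisson for levels, Clopper-Pearson for shares) at 95%. Thinned shares are hypergeometric expectations at 2000 UMIs per cell. Because each group had 1 library, no test was made, whereas the study used a negative binomial model on selected cells. TMM factors came from edgeR. Coordinates and biotypes are from GENCODE M21 (GRCm38), which matched 27645 of 27998 identifiers. The text names the 12 largest positive and negative ratios at a mean level of 50 CPM or more (leaving out predicted names, Xist, and Y-linked, ribosomal-protein and mitochondrial genes), the 3 highest and lowest members of each list, other list members, and Myc, Tnfaip3, Mki67, Cdk1, Csf1r, P2ry12 and Tmem119. The members and lists were chosen with earlier results of these data known. The calculation was tested on simulated counts with known ratios. Results for some genes are not reported here.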

Additional observations from a re-analysis of the deposited data

Results flagged for a closer look

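Among the named genes and list members, 20 differed at least 2-fold in opposite directions between day 1 and naive in the 2 genotypes, with counting intervals off 0 in both. Among all 8449 genes compared in both genotypes, 27 were higher in control and lower in A20 cKO, and 39 were lower in control and higher in A20 cKO. The genes searched include those named for their large control ratios, which makes an opposite call more likely among them. The difference between genotypes was not tested, since each group was 1 library. In 15 of them day 1 was higher in control and lower in A20 cKO. The log2 ratios in control and A20 cKO, in that order, were as follows for the early response and feedback genes: Fos (7.63 and -5.25), Fosb (7.11 and -5.92), Dusp1 (6.32 and -3.79), Egr1 (6.14 and -4.23), Klf2 (5.64 and -1.97), Ier2 (5.60 and -1.55), Jun (3.92 and -3.10), Jund (3.05 and -2.15), Zfp36 (2.34 and -1.38), Btg2 (2.97 and -2.27) and Ppp1r15a (3.55 and -1.04). The protease Adamts1, the signalling regulator Rgs1 and the glucocorticoid-responsive genes Tsc22d3 and Sgk1 had the same pattern, with ratios for Adamts1 (5.60 and -1.85), Rgs1 (2.99 and -2.30), Tsc22d3 (1.87 and -1.46) and Sgk1 (1.15 and -1.11).

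In the other 5 day 1 was lower in control and higher in A20 cKO, namely Snhg9 (-2.16 and 1.19), Wdr89 (-1.94 and 1.14), Nme2 (-1.99 and 1.00), Rpl6l (-2.08 and 1.31) and Rps27rt (-2.50 and 1.47). Rpl6l and Rps27rt are near-identical copies of ribosomal-protein genes, Nme2 is a close relative of Nme1 and Snhg9 lies antisense within Rps2, so their counts are uncertain.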

How the results depend on the processing

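The results were recomputed under 16 other settings in all, of which each result had only those that apply to it. Of these settings 3 (a mean of at least 10 CPM, day 1 cells of the lowest AP-1 group, and protein-coding genes without overlap) were chosen after the data were seen. No paired analysis was possible because each group was 1 library. The counts of higher and lower genes were 332 and 643, and became 164 and 286 with only cells of 2000 to 4000 UMIs, where fewer UMIs were left, 591 and 319 with median-of-ratios factors, 584 and 321 with TMM factors, and 169 and 132 with a minimum of 500 UMIs. The lower count became 1172 with a minimum of 20 UMIs and 1543 with a minimum of 1 UMI. The other settings kept both counts within 1.5 times.

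The AP-1 median of 2.80 became 3.35 in cells of 2000 to 4000 UMIs, 2.07, 1.33 and 3.49 with minimums of 20, 1 and 500 UMIs, and 1.75 in day 1 cells of the lowest AP-1 group. The heat shock median of 1.18 became 0.84 in cells of 2000 to 4000 UMIs. The homeostatic median of -0.29 became -0.047 and -0.049 with median-of-ratios and TMM factors. The medians of ribosome biogenesis and DNA replication kept their sign under every setting run, but in cells of 2000 to 4000 UMIs they were 0.50 in place of 0.73 and 0.37 in place of 0.80, the latter over 17 genes in place of 37. The mitosis median, of 1 gene, turned to -0.053 and -0.093 with minimums of 20 and 1 UMIs, and the chemokine median to -0.12 with a minimum of 1 UMI. Either size factor changed the sign of 7 list medians that lay near 0: cholesterol, G1, CSF1 receptor, disease-associated, cytokine, MHC class I and lysosome.

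The difference in the share of cells with Fos, 94.9 points, became 89.5 with thinning to 1000 UMIs. For Myc it was 20.1 without thinning and 5.46 at 1000 UMIs, and for Mcm2 8.35 and 1.94, in place of 9.65 and 3.96 points. The naive library's smaller depth sets the width of most intervals: 1 UMI there is 0.617 CPM.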

Other observations

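Energy and lipid genes differed in a few members. Pkm and Ldha, of the last steps of glycolysis, were higher, with ratios of 1.17 and 1.16, among 17 glycolysis genes compared, and the hexokinase Hk3 was lower (-1.23). Of 76 nuclear oxidative phosphorylation genes 0 were called, with a median of 0.16. In the cholesterol list the exporters Abcg1 (-2.62) and Abca1 (-1.16) and the regulator Srebf2 (-1.0) were lower, and the synthesis enzyme Sqle was higher (1.32). Abcg1 was at 35.8 CPM in naive and 5.83 CPM on day 1.

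Of 20 cytoplasmic tRNA synthetases 1, Cars, was higher (1.08), with a median of 0.26. Of 9 p53 targets 0 were called, with a median of 0.34. Of 14 Toll-like receptor and adaptor genes Irak2 was lower (-1.11), and of 17 lysosome genes Npc1 was lower (-1.09). Of all compared genes 3.74% were higher and 7.25% lower, and 1 call in lists of this size is near these shares. Purinergic genes had a median of -0.47 over 7 compared, with 0 called and the lowest ratio in Entpd1, the ectonucleotidase CD39 (-0.94). Of 12 mitochondrial genes mt-Atp8 was lower (-1.75), a gene that overlaps mt-Atp6, which had a ratio of 0.55. Cdk1, the mitotic kinase, was found in 0.693% of naive and 0.808% of day 1 cells at 2000 UMIs.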
